A study of Mus musculus with 18 samples.

Results

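The T cell receptor loci were examined for binding of RAD21, a subunit of the cohesin ring, in mouse splenic B cells. The Tcra/Tcrd window was taken as mm9 chr14:53000000-54900000 and the Tcrb window as mm9 chr6:40800000-41550000, and every peak whose centre fell in either window was a member, whatever its score. Peaks that shared at least 1 bp across lists were joined into sites. The windows held 12 of the 18957 sites of the series, 8 at Tcra/Tcrd (called A1 to A8 in order along the chromosome) and 4 at Tcrb (B1 to B4), made up of 39 of 54864 peaks. Of these peaks, 23 were in the replicate lists and 16 in the pooled lists.

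The B cells were purified on columns from the spleens of wild type C57BL/6 mice (C57BL/6J in the study's methods) aged 8 to 10 weeks. They were resting (0 h), or had spent 48 h or 96 h in culture with 50 µg/ml LPS, a bacterial component that activates B cells, and 2 ng/ml IL-4, a cytokine that together with LPS drives switching to IgG1. After 96 h, unlike at the other time points, cells that had switched to IgG1 were enriched by negative selection, so that the longer culture and this selection cannot be told apart. Each time point had 3 replicates, each pooled from the cells of 12 mice, so that differences between single animals could not be seen. Peaks had been called in each replicate against input DNA, and again in the merged reads of each time point, which gave 9 replicate lists and 3 pooled lists. The replicate lists held 821 to 8579 peaks although an equal number of unique positions had been drawn for each. The lists are not independent of each other, since a pooled list was called on the reads of its own 3 replicates. RNA was not measured, and the silence of these loci in B cells is background knowledge that was not checked here.

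The T cell receptor is assembled in developing T cells by V(D)J recombination, which joins variable (V), diversity (D) and joining (J) gene segments in front of a constant (C) gene. The Tcrd segments lie inside the Tcra locus, so that the α and δ chains share V segments. In thymocytes, cohesin and CTCF, the zinc finger protein at which cohesin often stops, are known to shape the loops of the Tcra locus, and the region between the constant gene Trac and the neighbouring housekeeping gene Dad1 holds the Tcra enhancer and elements that insulate it. B cells keep these loci in germline order and recombine the immunoglobulin loci Igh and Igk instead. The Tcra/Tcrd window held 172 annotated receptor segments (108 V, 2 D, 61 J and 1 C) and 13 other protein-coding genes. The 1 C is Trac, and no constant gene of the δ chain was among the annotated segments. The Tcrb window held 41 segments (23 V, 2 D, 14 J and 2 C) and 15 other protein-coding genes.

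Of the 12 sites, 4 were present in at least 3 of the 9 replicates (A5, A6, A7 and A8), as were 19.8% of all sites of the series, and all 4 lay in the last 220 kb of the Tcra/Tcrd window. The sequences below are shown because they separate the members into 2 kinds. The first kind carried a match to a 20-base CTCF-like motif that was learned from well supported RAD21 sites on other chromosomes. Its most likely letters are GCCACTAGGGGGCGCCATAG, on either strand, and the learned motif puts a log2 odds score on each match. The 6 sites below had a match within 100 bp of the centre, as had 66.4% of all sites. Each line gives the 20 matched bases in capitals with 5 bases on either side, 5′ to 3′ on the strand of the match, taken from the mm9 genome.
A4, chr14:54424090-54424119, minus strand: ctatgAACACTAGAGGGCAGCAAAGccagc
A5, chr14:54679633-54679662, plus strand: aggggACCACTAGATGGCAGCAGATggtaa
A6, chr14:54684382-54684411, plus strand: ttttgAACACTAGGGGGCAATGCTGgatca
A8, chr14:54858908-54858937, plus strand: gtgcaTCCACTAGATGGCGGCAGAGtgcag
B1, chr6:40843716-40843745, plus strand: gtcttTCCACCAGGGGGCACCATTTgccca
B3, chr6:41087166-41087195, plus strand: cactgGCCACTAGAGGGCACTGTGGattca
Site A7 was wide and had no match within 100 bp of its centre, but a search of its whole length found the match below, at -114 bp from the site's centre and with a score of 16.88.
A7, whole site searched, plus strand: aggtaGCCACACGGGGGCAGCAGTActcca

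The 5 remaining sites, A1, A2, A3, B2 and B4, held no match, and each had, within 100 bp of its centre, a run of 20 bases or more that repeats a unit of 1 to 4 bases (a tandem repeat). The longest repeats were 56 bases of GA at A2 and 53 bases of AGAC at B4. Below, 30 bases of each are shown in lower case, with no part marked.
A2, chr14:53720626-53720655, plus strand: gagagagagagagagagagagagagagaga
B4, chr6:41522593-41522622, plus strand: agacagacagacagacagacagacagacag
The motif was present at 50% of the members (exact 95% interval 21.1 to 78.9%), against 66.4% of all sites of the series and, as the threshold was set, 5% of windows 1 kb away. The repeat was present at 41.7% of the members and at 19.7% of all sites. Among all 12593 sites with a match, the score of B3 (23.15) was above 98.0% of the others, that of A8 (22.52) above 96.1%, those of A5 (21.76) and B1 (21.75) above 91.8%, that of A4 (19.75) above 76.4% and that of A6 (16.09) above 35.3%. A match describes the letters of the site, and CTCF itself was not analysed here.

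Replicate 2 at 48 h stood apart at these loci as in the series as a whole. All 5 sites with a repeat were called in it and in no other replicate, whereas none of the 7 other sites was called in it. Sites called in this replicate alone made up 25.1% of all sites and 5 of the 12 members. Repeat and motif were both sought within 100 bp of a site's centre, so that a repeat can lie beside a narrow site. In the whole series, 63.95% of the 4763 sites called in this replicate alone had a tandem repeat and 1.51% the motif. Of the 9977 sites called in other replicates but not in it, 2.41% had a repeat and 92.6% the motif. Its peaks were narrow, with a median width of 65 bp over its list, against 151 to 212 bp in the 8 other replicates. The part of repeats and of this library in sites A1, A2, A3, B2 and B4 was not tested. With this replicate and the pooled peaks that it alone supported left out, 8 of the 12 sites remained, A2 through its peak in the 96 h pooled list.

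**Figure D1:**
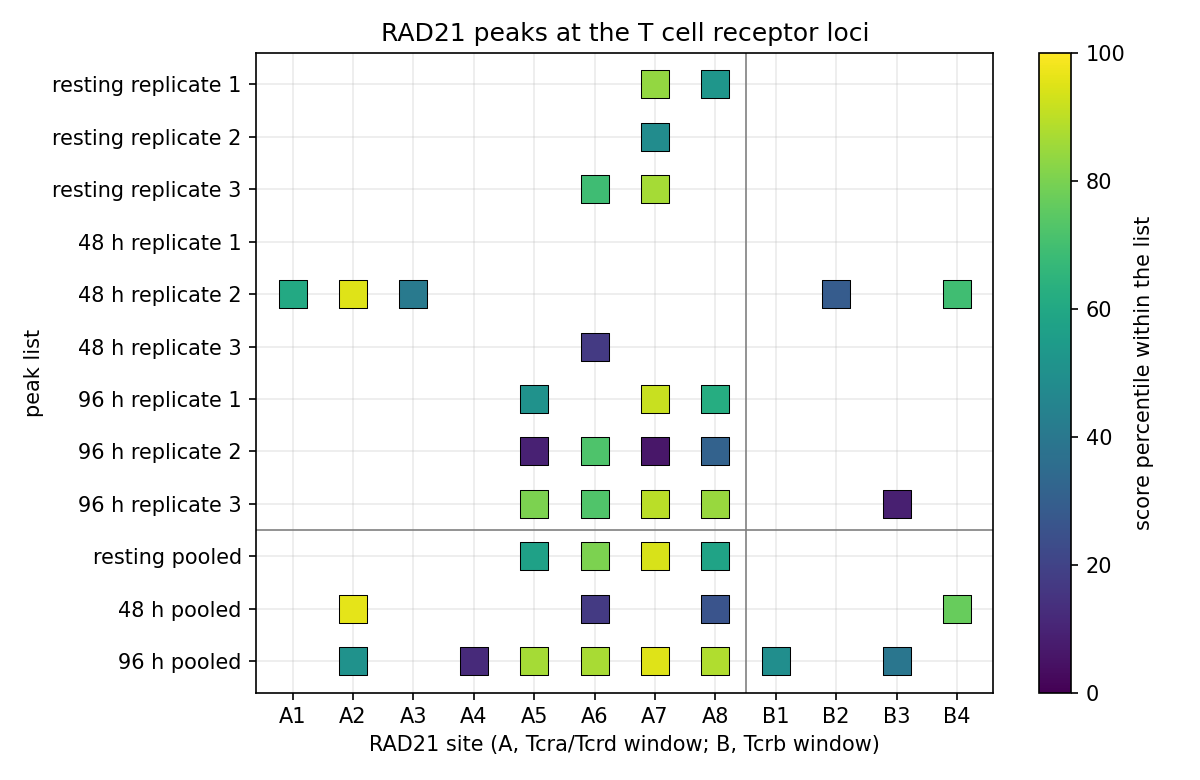
RAD21 peaks at the 12 sites (x axis) in the 12 peak lists (y axis); a square marks a peak and its colour gives the percentile of its caller score within that list. Site A7 has a peak in all resting and all 96 h replicates, A5 and A8 in all 96 h replicates and A6 in 4 replicates of the 3 time points, while A1, A2, A3, B2 and B4 appear among replicates only in 48 h replicate 2.

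The best supported site was A7, at chr14:54847625-54848142, an intergenic stretch 5.11 kb past the end of Trac and 7.27 kb from the 3′ end of Dad1, which encodes a subunit of the enzyme that attaches sugar chains to proteins. A peak was called there in all 3 resting replicates, at the 83.6th, 48.4th and 86.6th percentile of the score within the list, and in all 3 replicates at 96 h, at the 91.6th, 5.90th and 89.7th percentile. No replicate had a peak there at 48 h. The resting and 96 h pooled lists had it at the 94.1st and 95.02nd percentile, and the 48 h pooled list did not have it. Replicates 1, 2 and 3 held 2097, 821 and 3578 peaks in resting cells and 1538, 5254 and 1563 at 48 h. At 96 h they held 2807, 4552 and 8579. The part of list length and of 48 h replicate 2 in the absence of A5, A7 and A8 from the 48 h replicates was not tested. The score percentiles of the resting and 96 h replicates overlapped, and the lowest was in 96 h replicate 2. Over all sites of the series, 1.88% were in all resting and all 96 h replicates and 0.665% were in all resting and no 48 h replicates, and among the members each pattern was shown by A7 alone. Site A7 was also the widest member. Its peak spanned 471 bp in the resting pooled list and 505 bp in the 96 h pooled list, wider than 99.7% and 99.8% of the peaks of those lists.

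Site A8, at chr14:54858683-54859089, lay in an intron of Dad1, 11003 bp beyond A7. It was called in resting replicate 1 at the 52.7th percentile and in all 3 replicates at 96 h, at the 61.8th, 31.2nd and 84.7th percentile. It was in all 3 pooled lists, at the 57.9th percentile in resting cells, the 25.8th at 48 h and the 87.9th at 96 h. At 48 h it thus had a pooled peak, 73 bp wide, but no peak in any replicate. Sites A7 and A8 lay on the Trac side of the locus, so that this constant gene had peaks beyond its 3′ end. No peak of any list fell between Trac and A6, a stretch of 156 kb. Of the annotated segments, that stretch held the 61 J segments, both D segments and 2 V segments, Trdv4 among them.

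Sites A5 and A6 formed a pair on the other side of that stretch, 4.76 kb apart, in the interval before Trdv4, a V segment of the δ chain. Site A5 (chr14:54679544-54679781), 15017 bp before Trdv4, was called in all 3 replicates at 96 h, at the 50.4th, 9.14th and 80.3rd percentile, and in no resting or 48 h replicate. The resting pooled list nevertheless had A5 at the 57.0th percentile, and the 96 h pooled list had it at the 86.6th, so that its absence from the resting replicates was not an absence from resting cells at the depth of the merged reads. Of all sites, 3.17% were in all 96 h and no resting replicates, and A5 was the single member with that pattern. Site A6 (chr14:54684271-54684568), 10.3 kb before Trdv4, was called in resting replicate 3 at the 69.0th percentile, in 48 h replicate 3 at the 17.1st, and in 96 h replicates 2 and 3 at the 71.9th and 72.4th. It was in all 3 pooled lists, at the 80.4th, 17.1st and 86.8th percentile in resting, 48 h and 96 h cells. It was the single member called in a 48 h replicate other than replicate 2.

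Sites in all 96 h and no 48 h replicates made up 4.36% of the series. A5, A7 and A8 were such sites, 25% of the members (exact 95% interval 5.49 to 57.2%). That interval lies above the share of the series, but it rests on 3 sites and takes neighbouring sites as independent. Sites in all 3 pooled lists made up 12.6% of the series. A6 and A8 were such sites, 16.7% of the members (exact 95% interval 2.09 to 48.4%). The 4 members in at least 3 replicates made up 33.3% of the 12 (exact 95% interval 9.92 to 65.1%), an interval that holds the 19.8% of the series. The 4 sites are shown on the map of both windows to stand in 2 groups around the D, J and C segments of Tcra/Tcrd, 163 kb apart.

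**Figure D2:**
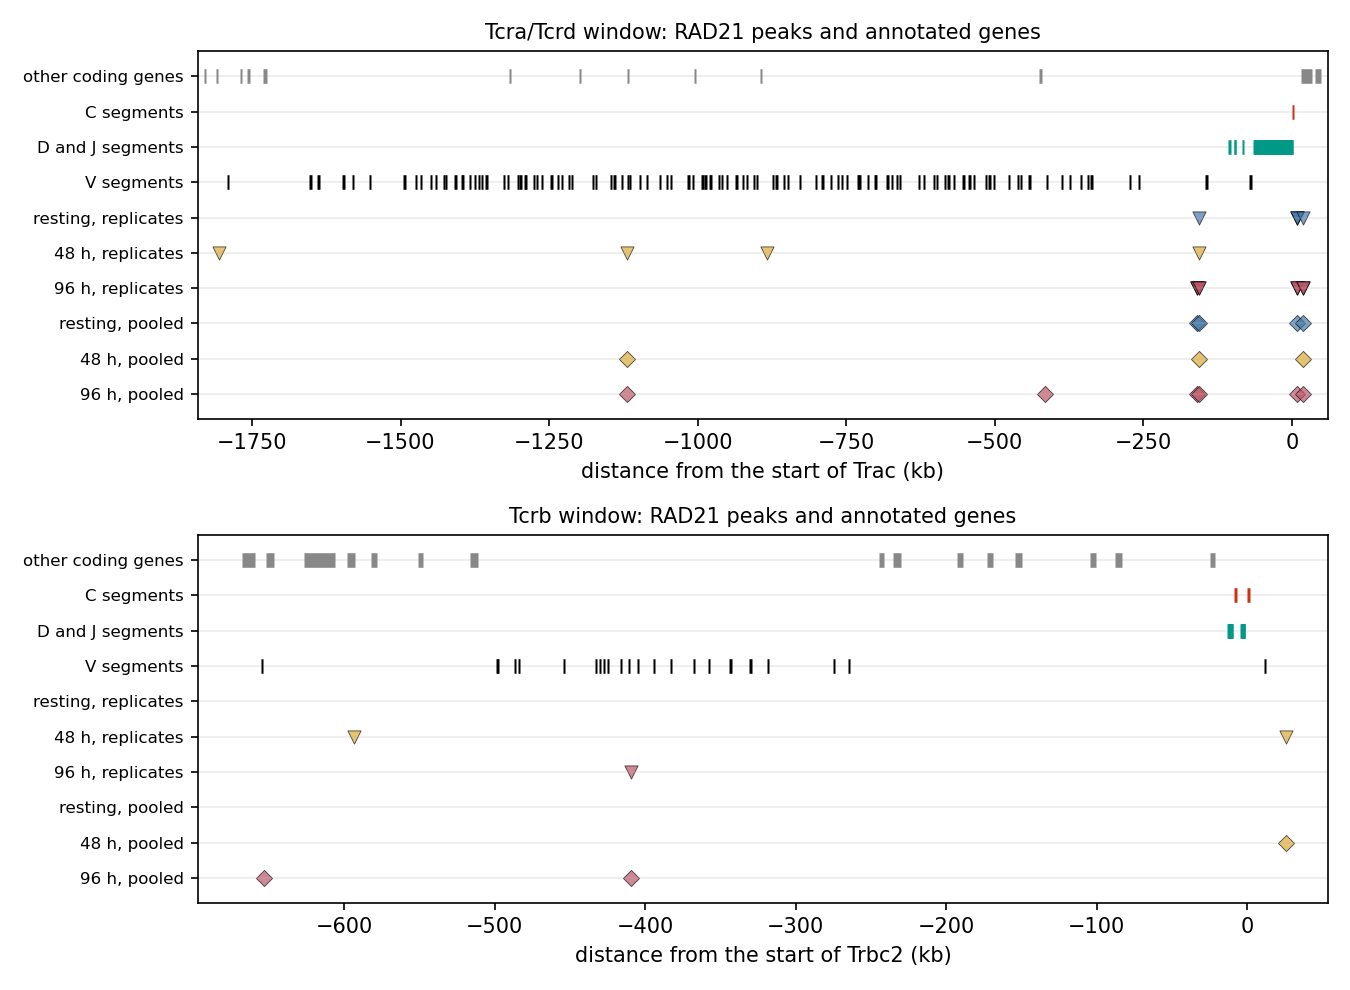
RAD21 peaks and annotated genes along the Tcra/Tcrd window (distance in kb from the start of Trac) and the Tcrb window (distance in kb from the start of Trbc2); triangles are peaks of replicates, diamonds peaks of pooled lists, coloured by time point. In Tcra/Tcrd the replicate peaks of resting and 96 h cells stand next to Trac and before Trdv4, and the V segments upstream hold replicate peaks of 48 h replicate 2 alone.

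The large upstream part of the Tcra/Tcrd window, which holds most of the V segments, had few peaks. From the start of the window to A5, a length of 1680 kb, no replicate had a peak except 48 h replicate 2, which had 3. In the remaining 220 kb, from A5 on, the resting replicates had 2, 1 and 2 peaks, the 48 h replicates 0, 0 and 1, and the 96 h replicates 3, 4 and 4. The pooled lists had 0, 1 and 2 peaks upstream and 4, 2 and 4 downstream for resting, 48 h and 96 h cells. This boundary was chosen after the positions had been seen, and the counts are a description with no test. Over the span from the first to the last segment, 45.4% of 32-base words occurred once in the genome, against 80.1% over chromosome 14, and the part of repeated sequence in the low counts upstream was not tested.

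Site A4 (chr14:54424001-54424143) was the single member with a motif among the Trav segments, 2.13 kb before the start of Trav17, a V segment of the α chain. It was found only in the 96 h pooled list, at the 11.9th percentile and with a width of 143 bp, and no replicate had it. Site A2 (chr14:53720526-53720720) lay among Trav segments, 9073 bp past Trav7n-4 and 745 bp before the gene model RP24-334B8.1, which overlaps the next annotated V segment. It was in 48 h replicate 2 as peak 253 of 5254 by score, in the 48 h pooled list at the 95.9th percentile and in the 96 h pooled list at the 50.8th. Within 1 kb around A2, 46.9% of 32-base words were unique. Sites A1 (chr14:53035296-53035358), between the olfactory receptor gene Olfr1510 and Trav1, and A3 (chr14:53957673-53957730) were in 48 h replicate 2 alone, at the 60.4th and 40.8th percentile. Around A3, 6.4% of words were unique.

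The Tcrb window had no site in more than 1 replicate. Site B3 (chr6:41087075-41087348) lay between the V segments Trbv14 and Trbv15, 1.60 kb past the former, and was in 96 h replicate 3 at the 8.91st percentile and in the 96 h pooled list at the 39.2nd. It thus had the highest motif score of all members and percentiles below the middle of both lists. Site B1 (chr6:40843649-40843852) lay 1.87 kb past the first V segment, Trbv1, and 1.51 kb from Prss58, a serine protease gene of the trypsin cluster that interrupts the locus. It was in the 96 h pooled list alone, at the 48.9th percentile. Site B2 (chr6:40903081-40903138), in an intron of the gene model Gm4744, was in 48 h replicate 2 at the 28.6th percentile. Site B4 (chr6:41522573-41522661) lay 14.2 kb past Trbv31, the V segment beyond the constant genes, and was in 48 h replicate 2 at the 69.5th percentile and in the 48 h pooled list at the 76.7th. No list had a peak within the D, J and C segments of Tcrb, and the nearest site to Trbc2 was B4, at 24.4 kb. The resting cells had no Tcrb peak in any replicate or in the pooled list. For the pooled list of 5690 peaks this allows a share of up to 0.0527% of peaks (3 peaks), a limit for counting error only.

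Whether these loci were poor in peaks was asked by comparing the number of peaks per Mb of sequenced bases in each window with the rest of its chromosome, within each replicate. The test over replicates asks whether the lists agree on a difference. It does not measure how much stretches of the same chromosome differ from each other. At Tcra/Tcrd the resting replicates had 1.05, 0.526 and 1.05 peaks per Mb, the 48 h replicates 0, 1.58 and 0.526, and the 96 h replicates 1.58, 2.11 and 2.11. The mean was 1.17 ± 0.734 peaks per Mb (SD, n = 9), against 1.05 ± 0.757 in the rest of chromosome 14. The window was higher in 6 of 9 replicates and lower in 3, with a mean difference of 0.116 ± 0.490 peaks per Mb (exact sign-flip permutation test, two-sided p = 0.504; adjusted over 6 density tests, p = 0.756). A difference at this locus was therefore not detectable, and the direction depended on where the window ended. Over the span from the first to the last receptor segment, which leaves out A1, A7 and A8, the mean difference was -0.505 peaks per Mb (exact permutation p = 0.00781, not adjusted). Per Mb of unique 32-base words the whole window was higher than the rest of the chromosome, by 1.14 (exact permutation p = 0.0117, not adjusted). Without 48 h replicate 2 the difference was 0.188 (exact permutation p = 0.297). No single replicate left out brought the difference past the threshold; it was 0.0442 without 96 h replicate 1, 0.0233 without 96 h replicate 2, 0.189 without 48 h replicate 1 and 0.178 without 96 h replicate 3.

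At Tcrb, 7 of 9 replicates had no peak. The exceptions were 48 h replicate 2, with 2.67 peaks per Mb, and 96 h replicate 3, with 1.33. The mean was 0.444 ± 0.943 peaks per Mb (SD, n = 9), against 1.28 ± 0.923 in the rest of chromosome 6. The window was lower in 8 of 9 replicates, with a mean difference of -0.835 ± 0.716 peaks per Mb (exact sign-flip permutation test, two-sided p = 0.0117), but the difference did not pass after adjustment over the 6 density tests (p = 0.0703). The replicate that went the other way was 48 h replicate 2. Without it the difference was -1.0003 (exact permutation p = 0.00781), the smallest that 8 replicates allow. At the density of the rest of chromosome 6, the window would hold 0.562, 0.237 and 1.015 peaks in the resting replicates. The expected counts were 0.459, 1.63 and 0.412 at 48 h and 0.706, 1.24 and 2.38 at 96 h. A replicate without peaks always counted as lower, and an empty window is common where so few are expected. Agreement of the replicates on the sign therefore does not by itself show that the window is poor in peaks. These p-values do not say how unusual the window is among stretches of chromosome 6, for which the tiles below give a description. In this window 73.9% of 32-base words were unique, against 84.7% over chromosome 6, and the difference was in the same direction per Mb of unique words.

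**Figure D3:**
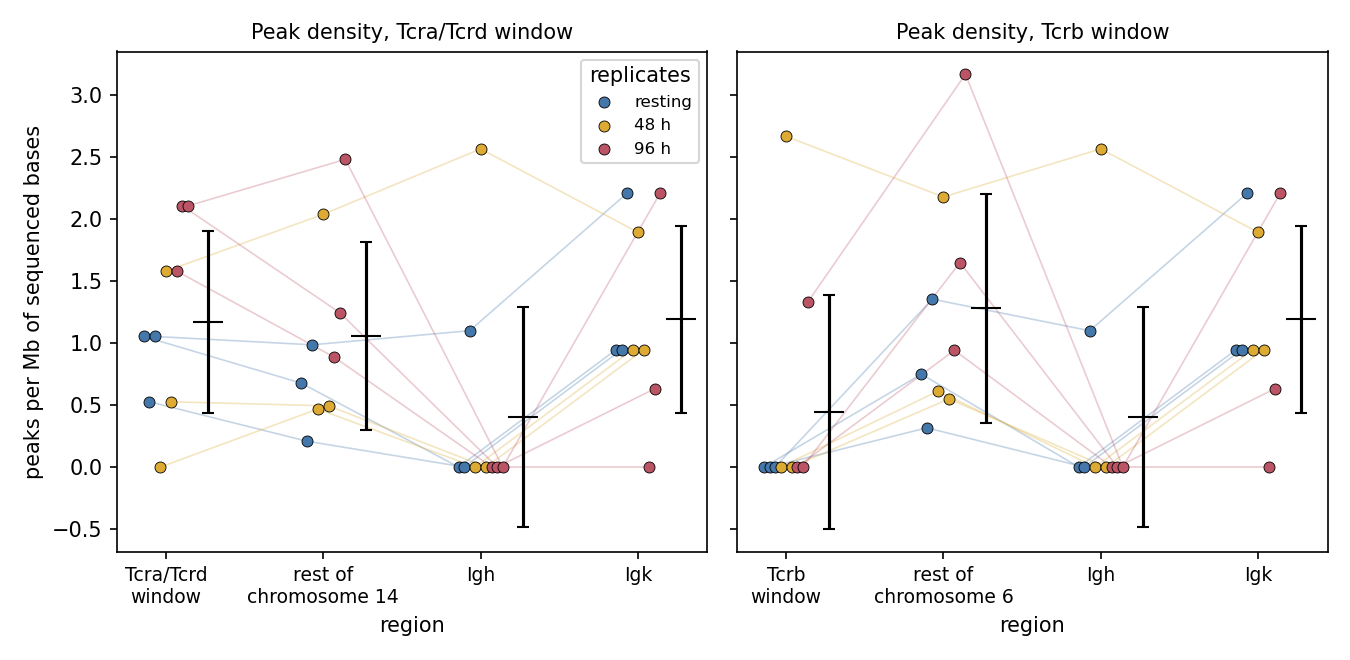
Peaks per Mb of sequenced bases (y axis) in each of the 9 replicates (points joined by lines, coloured by time point) for the Tcra/Tcrd window (left) and the Tcrb window (right), the rest of the same chromosome, Igh and Igk; black bars are the mean ± SD over 9 replicates, and the SD can reach below 0 although no density does. The Tcrb points lie at 0 in 7 of 9 replicates, while the Tcra/Tcrd points spread over the same range as chromosome 14.

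The pooled lists were read against other stretches of equal length on the same chromosome. Chromosome 14 was divided into 62 tiles of 1.9 Mb. In resting cells the Tcra/Tcrd window had 4 pooled peaks, more than 41 tiles and fewer than 16, against a tile median of 2. At 48 h it had 3, the tile median, and at 96 h 6, again the tile median. Chromosome 6 was divided into 193 tiles of 0.75 Mb. The Tcrb window had 0 pooled peaks in resting cells, as had 88 tiles, 1 at 48 h, equal to the tile median of 1, and 2 at 96 h, against a median of 3. In resting cells no tile could hold fewer peaks than the window, and 105 held more. At 48 h, 90 tiles held more and 41 fewer, and at 96 h, 97 held more and 74 fewer.

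The immunoglobulin loci, the antigen receptor loci that B cells use, gave the nearest comparison. Their densities are per Mb of the reference genome, and DNA that recombination removes from Igh and Igk in B cells was not taken into account. Igh had 0.407 ± 0.887 peaks per Mb (SD, n = 9), with peaks in 2 of 9 replicates, 48 h replicate 2 and resting replicate 3, and Igk had 1.19 ± 0.753. Tcra/Tcrd was higher than Igh in 6 of 9 replicates, by 0.762 ± 1.05 peaks per Mb, a difference that did not pass the test (exact sign-flip permutation test, p = 0.0625, adjusted p = 0.125). Without 48 h replicate 2 it was 0.981 (exact permutation p = 0.0313, not adjusted). The spans were unlike, since Igh and Igk ended at their outer segments while the Tcra/Tcrd window ran past Trac to A7 and A8. The Igh span began at chr12:114509484, and the prominent RAD21 peak that the paper used as a control lies outside it, on the 3′ side. The paper also reports frequent cohesin binding at the 3′ regulatory region of Igh. Peaks beyond the span were not counted, so the Igh density does not describe that side of the locus. Over the span of its segments, Tcra/Tcrd had 0 peaks per Mb in resting replicates 1 and 2 and 48 h replicate 1. In the other replicates it had 0.557 to 1.11, and no test against Igh or Igk was run over that span. Against Igk the mean difference was -0.0217 ± 0.959 (exact permutation p = 0.969, adjusted p = 0.969), and its sign changed with the replicates included. Tcrb was lower than Igk in 7 of 9 replicates, with a mean difference of -0.747 ± 0.806 peaks per Mb (exact permutation p = 0.0234, adjusted p = 0.0703), and it differed from Igh by 0.0373 ± 0.611 (exact permutation p = 0.75, adjusted p = 0.9). An empty Tcrb window counted as lower wherever Igk had a peak, and few Tcrb peaks were expected at the density of the rest of chromosome 6. The 6 comparisons share windows and replicates and are not independent of each other. Of the 32-base words of Igh, 61.0% were unique, and of those of Igk 57.7%, against 47.9% in the Tcra/Tcrd window. The third T cell receptor locus, Tcrg on chromosome 13, had 1 site, called in 48 h replicate 2 and in the 48 h and 96 h pooled lists.

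Stimulation was compared by the share of each replicate's peaks that fell in the windows, since the lists differed in length. In resting cells the shares were 0.0954%, 0.122% and 0.0559%, at 48 h 0%, 0.0952% and 0.0640%, and at 96 h 0.107%, 0.0879% and 0.0583%. The time points overlapped. The means were 0.0910 ± 0.0332% in resting cells, 0.0530 ± 0.0485% at 48 h and 0.0843 ± 0.0245% at 96 h (SD, n = 3 each), and no difference was detectable (exact permutation F test over 1680 arrangements, F = 0.913, p = 0.475; adjusted over 3 tests, p = 0.713). For Tcra/Tcrd alone the means were 0.0910%, 0.0404% and 0.0805% (exact permutation p = 0.236, adjusted p = 0.707), and for Tcrb alone 0%, 0.0127% and 0.00389% (exact permutation p = 1). Between pairs of time points the exact permutation p was 0.3 to 1, and 3 against 3 replicates cannot go below 0.1. These shares rest on 0 to 5 peaks a replicate. The exact 95% interval of the share of 5 peaks in 48 h replicate 2, for instance, was 0.0309 to 0.222%. For the 0 peaks of 48 h replicate 1 the exact 95% interval reached 0.240%, and a limit set at 3 peaks is 0.195%. The number of peaks in the windows was highest in the 96 h pooled list, at 8, against 4 in each of the other pooled lists, and that list was also the longest, with 12806 peaks against 5690 and 5579.

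**Figure D4:**
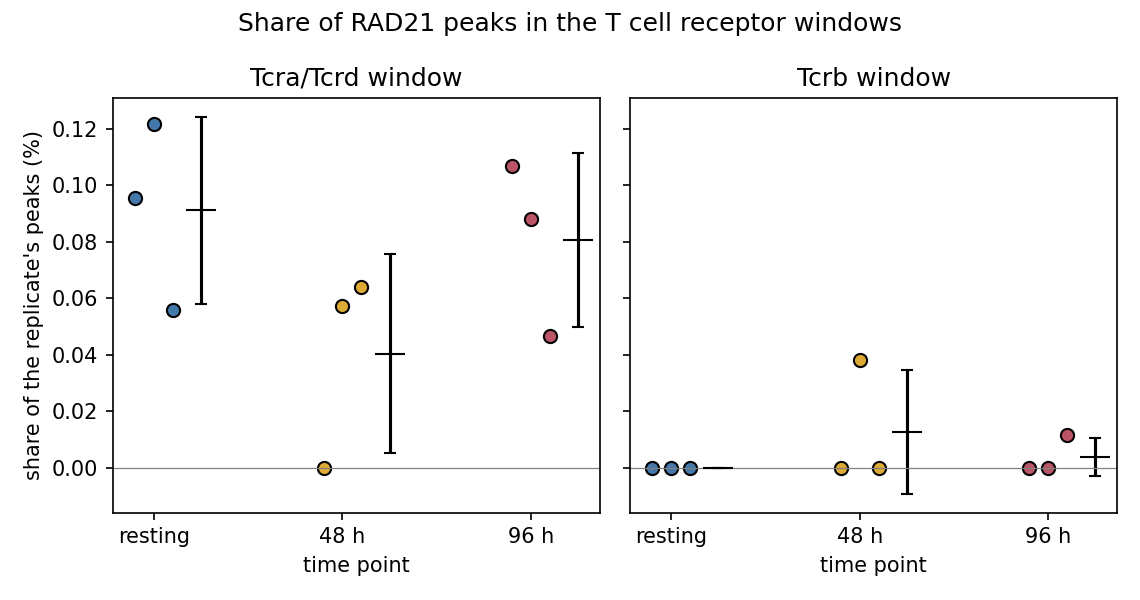
Share of each replicate's RAD21 peaks, in %, that lay in the Tcra/Tcrd window (left) and the Tcrb window (right) by time point; points are replicates, black bars the mean ± SD of 3, which can reach below 0 although no share does. The time points overlap in both windows, and 48 h replicate 1 lies at 0 in both.

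The scores of the member peaks were spread over their lists. The mean percentile of the member peaks was 68.2, 48.4 and 77.8 in the resting replicates, 58.9 and 17.1 in 48 h replicates 2 and 3, and 68.0, 29.5 and 67.2 at 96 h. Over the 8 replicates with a member peak it was 54.4 ± 21.2 (SD, n = 8), above 50 in 5 of them, and no difference from 50 was detectable (exact sign-flip permutation test, p = 0.570). Without 48 h replicate 3 the mean rose to 9.70 above 50 (exact permutation p = 0.188) and without 96 h replicate 2 to 7.93 (exact permutation p = 0.313), while without resting replicate 3 it was 1.02 above 50 (exact permutation p = 0.906), without resting replicate 1 2.41 and without 96 h replicates 1 or 3 2.43 and 2.54. In 96 h replicate 2, the Tcra/Tcrd sites A5, A7 and A8 were at the 9.14th, 5.90th and 31.2nd percentile, lower than in both other 96 h replicates at each of the 3 sites.

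Genes that build or signal through the T cell receptor were read from a list of 17, by whether a pooled peak lay in the gene or within 10 kb either side. A longer gene covers more sequence, and the shares of coding genes below were not matched for gene length. Of these, 11 had a peak in at least 1 pooled list, against 39.8% of all 22225 protein-coding genes, and all 11 had it at 96 h, when 36.3% of coding genes had. In resting cells 4 of 17 had a peak (19.5% of coding genes) and at 48 h 3 of 17 (14.95%). Among the subunits of the CD3 complex, which carries the receptor's signal, Cd3g had 1 peak in resting cells and 1 at 96 h, and Cd247, the ζ chain gene, had 3 at 96 h, while Cd3d and Cd3e had none. Cd4, the coreceptor of helper T cells, had 1 peak at 96 h, and Cd8a and Cd8b1, the coreceptor of cytotoxic T cells, had none. Of the signalling genes, Zap70, a kinase recruited to the receptor, had 1 peak in each pooled list and Lck, the kinase that acts before it, had 1 in resting cells and 2 at 96 h, whereas the adaptor Lat had none. Of the recombination genes, Rag1, a subunit of the V(D)J recombinase, had 1 peak in resting cells and 1 at 96 h, its partner Rag2 had none, and Dntt, which adds bases at the joins, had 1 at 48 h and 2 at 96 h. Ptcra, which pairs with the β chain before the α chain is made, had 1 at 96 h. The T lineage transcription factor genes Tcf7, Gata3 and Bcl11b had 2, 1 and 1 peaks at 96 h, and Bcl11b also had 1 at 48 h. With peaks below the median score of their list left out, 6 of 17 had a peak, against 25.5% of coding genes. A peak near a gene is a position and gives no level of the gene's RNA.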

How the data were processed

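RAD21 ChIP-seq peaks from 9 replicates and 3 pooled sets of mouse splenic B cells were used. According to the methods and labels, the authors aligned reads to mm9 with Bowtie 2, took an equal random subset of unique positions from each set, and ran MACS 2 with input as control and an FDR of 0.05. Merged IP and control reads gave the pooled lists. The 9 input libraries entered only through this calling. The deposited value is the caller's score, whose statistic is not named, and it was used only as a rank: a percentile is the share of peaks of the list that score lower, with ties at mid-rank. Read counts were not used, so the depth behind a peak is unknown, and intervals and limits cover counting error only.

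Positions are 1-based on mm9, with GENCODE M1 genes. Igh and Igk are spans of annotated segments, and for Igk only genes named Igk were taken, because the annotation gives T cell receptor segments the same biotype. Each density was tested over replicates by an exact two-sided sign-flip permutation, and shares by an exact permutation F test. Adjusted p-values follow Benjamini and Hochberg. Each replicate is a pool of 12 mice, and whether a pool was split over the time points is not stated. The motif was learned from 752 sites in at least 6 replicates, with chromosomes of antigen receptor loci left out, and 90.8% of these sites matched; its threshold is passed by 5% of windows 1 kb away. Motif sequences are shown for all matches, which goes beyond the rule set, that named those in at least 3 replicates. The members and lists were chosen with earlier results of these data known. The work was done in Python 3.11.15 with scipy 1.17.1, numba 0.67.0, numpy 2.4.6, matplotlib 3.10.9 and pysam 0.24.0. The scripts' statistics were tested on simulated data. The simulated window of the density test was longer than either window here, so its behaviour at the few peaks of these windows was not tested.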

Additional observations from a re-analysis of the deposited data

How the results depend on the processing

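Of 140 alternatives over the values reported, 117 kept direction and side of the threshold or, for counts of sites and genes, which have no test, stayed within 1.5 times the reported count. Where not said otherwise the cause was not tested. For Tcra/Tcrd against the rest of chromosome 14, the difference was 1.14 peaks per Mb of unique words (now past the threshold) and -0.505 over the span of segments, which leaves out A1, A7 and A8 by construction; leaving out 1 replicate gave 0.0233 to 0.189. Against Igh it was 1.78 per Mb of unique words (exact permutation p = 0.0234), and 0.595 to 0.981 when 1 replicate was left out, past the threshold for 1 of these 9, without 48 h replicate 2. Against Igk the sign turned with unique words (0.380), with peaks at or above the median score (0.282) and with lists of equal length (0.0121), and leaving out 1 replicate gave -0.222 to 0.120. For Tcrb against Igh the sign turned with unique words (-0.0662), at or above the median score (-0.137) and with equal lists (-0.0407), and leaving out 1 replicate gave -0.125 to 0.179. Tcrb against Igk was -0.280 with equal lists (exact permutation p = 0.0625). Tcrb against the rest of chromosome 6 stayed past an unadjusted threshold without any 1 replicate, at -1.0003 to -0.710, with equal lists, at -0.298, and at or above the median score, at -0.530. Equal lists held 821 peaks each, the length of the resting replicate 2 list. In that list 0.237 Tcrb peaks were expected at the density of the rest of chromosome 6. An empty window is likely at such a count, so equal lists cannot decide whether the window is poor in peaks. The mean percentile less 50 was -2.37 over the segments. At or above the median score there were 7 sites, 0 of them in all 3 pooled lists, and 6 of the 17 genes; over the segments 1 site was in all 3 pooled lists and 2 in at least 3 replicates, and 50 kb in place of 10 kb gave 16 genes, against 69.9% of coding genes. The motif share of the members was 50% at the stricter threshold and 58.3% over whole sites. The shares of all sites at these settings are not given here, so neither value can be set against the series. The threshold was set for searches within 100 bp of a centre, and a longer site gives more room for a match.

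Samples with the same replicate number were not more alike than others: their deviations correlated at -0.178 to 0.146 (9 pairs). For samples with different numbers the correlations were -0.148 to 0.261. Whether samples of the same number came from the same mice is not stated, and these values cannot decide it. With the replicate number as a block, F for the share by time point was 0.913 (exact permutation p = 0.667). Without the block, F was 3.16 at or above the median score (exact permutation p = 0.0929), 2 with equal lists (exact permutation p = 0.357), 1.78 over the segments (exact permutation p = 0.261) and 0.107 (without 48 h replicate 1) to 2.17 (without 48 h replicate 2) when 1 replicate was left out; none passed. An alternative chosen after seeing the data, without 48 h replicate 2 and the pooled peaks it alone supported, left 8 sites, 2 in all 3 pooled lists and 4 in at least 3 replicates.

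The windows hold 0 to 5 peaks a replicate, so modest differences between time points could not be seen. Whether reads that align to several places of the genome were dropped is not stated. If they were, sequence that repeats in the genome could not be covered in full. Peaks were nevertheless called at A2 and A3, where 46.9% and 6.4% of the words around the site were unique.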
